A study of Mus musculus with 47 samples.

Results

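The smooth muscle contractile genes described here are 9 genes: Acta1, Acta2, Actg2, Tagln, Cnn1, Myl9, Tpm1, Tpm2 and Des. They were chosen by name, as the rows of the deposited RPKM table (read counts divided by gene length and by library size) that carry these symbols, and all 9 were found among its 22632 genes. Their Ensembl IDs in the table are ENSMUSG00000031972 (Acta1), ENSMUSG00000035783 (Acta2), ENSMUSG00000059430 (Actg2), ENSMUSG00000032085 (Tagln), ENSMUSG00000001349 (Cnn1), ENSMUSG00000067818 (Myl9), ENSMUSG00000032366 (Tpm1), ENSMUSG00000028464 (Tpm2) and ENSMUSG00000026208 (Des). All 9 were expressed highly enough to be tested in every comparison below. The libraries came from secondary mouse embryonic fibroblasts, cells that reprogram toward pluripotency when doxycycline is given. SC and SI are 2 classes of such clones, 4 of each (SC1 to SC4 and SI1 to SI4), and the labels do not spell the names out. Each clone was sampled after 14 days of doxycycline (d14), after 21 days (d21), after 21 days followed by 1 day (d22) or 2 days (d23) off the drug, and after 27 days (d27). The SC clones were also sampled as secondary iPS cells, with 21 days on and 6 days off the drug. Mouse embryonic fibroblasts kept as feeders and given no doxycycline made 3 further libraries. This gave 12 groups and 47 libraries, with n = 4 for each clone group and n = 3 for feeders. The sources used here give no strain, animal age or promoter of the doxycycline-driven factors.

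Smooth muscle and contractile fibroblasts shorten by sliding myosin along actin filaments, and the proteins studied here build, coat or anchor those filaments. Many of their genes are switched on by serum response factor, which binds a DNA element called the CArG box, together with myocardin-related cofactors that respond to free actin and to TGF-beta. Embryonic fibroblasts in culture express much of this programme, and the loss of fibroblast genes is an early part of reprogramming. Acta2 encodes smooth muscle alpha-actin, Actg2 the gamma-actin of gut smooth muscle, and Acta1 the alpha-actin of skeletal muscle, which is also made in other contractile cells. Tagln (SM22 alpha) and Cnn1 (calponin) bind actin filaments. Myl9 is a regulatory light chain of non-skeletal myosin, Tpm1 and Tpm2 are tropomyosins that lie along the filament, and Des encodes desmin, a muscle intermediate filament.

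Because the members moved together, RefSeq promoters (build GRCm38.p6, 250 bases before to 50 after the gene's start) were searched for elements of this programme, and 7 of 9 members had one. Tagln and Actg2 had no promoter in the table used. The 3 below are shown because they hold CArG boxes, exact or with 1 C or G in the A and T core. Acta1 lies at chr8:123894726-123895025 on the minus strand, Acta2 at chr19:34255324-34255623 on the minus strand and Myl9 at chr2:156775214-156775513 on the plus strand. Each reads 5′ to 3′ along its gene, with these elements in capitals.
Acta1: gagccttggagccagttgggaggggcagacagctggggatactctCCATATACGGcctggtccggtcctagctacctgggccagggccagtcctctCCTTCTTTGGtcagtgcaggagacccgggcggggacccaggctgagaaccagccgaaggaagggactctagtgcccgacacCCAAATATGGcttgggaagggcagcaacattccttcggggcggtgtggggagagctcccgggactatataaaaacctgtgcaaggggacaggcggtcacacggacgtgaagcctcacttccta
Acta2: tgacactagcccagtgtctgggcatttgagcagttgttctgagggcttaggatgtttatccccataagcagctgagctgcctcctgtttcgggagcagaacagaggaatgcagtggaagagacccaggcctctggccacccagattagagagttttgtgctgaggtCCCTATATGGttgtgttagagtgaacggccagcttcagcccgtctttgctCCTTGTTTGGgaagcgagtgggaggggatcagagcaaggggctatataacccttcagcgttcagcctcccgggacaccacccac
Myl9: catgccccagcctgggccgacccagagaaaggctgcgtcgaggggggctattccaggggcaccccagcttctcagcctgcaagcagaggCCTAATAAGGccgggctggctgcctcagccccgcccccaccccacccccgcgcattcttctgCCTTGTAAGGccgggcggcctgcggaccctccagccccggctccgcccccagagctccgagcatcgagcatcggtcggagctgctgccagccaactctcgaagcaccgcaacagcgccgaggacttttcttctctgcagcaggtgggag

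An exact CArG box stood from -73 to -64 in Acta1 and from -161 to -152 in Myl9, counted from the gene's start. These were 2 of the 7 members, and 1.63% of all 32851 promoters held one. The looser form, searched after the sequences were seen, occurred in 3 of 7 members and 8.5% of all promoters. In Acta2 it stood from -84 to -75 and from -34 to -25. The MCAT element CATTCC, a motif of TEAD factors, was present in Acta1, Acta2 and Tpm1 and in 14.7% of all promoters. The SMAD motif CAGACA was present in Acta1, Acta2 and Des and in 21.0% of all promoters, and the TATA box TATAAA in Acta1 and in 8.32%. Both strands were searched, except for the TATA box, which was searched on the gene's own strand only. No listed matches overlapped. These matches describe the sequence and do not show binding.

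The sum of RPKM was 189172 to 245695 per library, and 10909 to 11931 genes reached 1 RPKM. Read totals are not given, and the spacing of low values in 42 libraries implied 31.5 to 98.0 megareads up to a whole multiple. Actins share sequence, so their reads can be divided unevenly between them. Of the 50-base stretches of Acta1 transcripts, 2.02% also occur in other genes, and 0.326% of those of Acta2, while the other 7 members share none. All tests are limma on log2(RPKM + 1) with p-values adjusted by Benjamini-Hochberg over all genes tested and a threshold of 0.05. They measure only the spread between these clones, and the feeder libraries may be technical repeats. Shares of all genes called are those of the main fits, and none is given for refits under other settings or without a library. Log2 differences understate the change of low genes such as Des and Acta1. In bulk RNA, fewer cells of a type and less RNA per cell cannot be told apart.

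Feeders held the highest mean of 6 members, and SI clones at d23 the highest mean of the other 3, Acta1, Tpm1 and Des. Acta2 measured 1889, 1889 and 1724 RPKM in the feeders, and Tagln 1356, 1356 and 1203 RPKM. These were the most abundant members, on this scale per gene length, in all 12 groups. Myl9 averaged 394 ± 26.3, Tpm1 314 ± 16.8, Tpm2 181 ± 9.81, Actg2 165 ± 7.52 and Cnn1 122 ± 5.02 RPKM in feeders (SD, n = 3). The least abundant members there were Acta1, at 30.5 ± 3.84 RPKM, and Des, at 17.6 ± 0.33 RPKM. Between neighbours in this order Tpm2 and Actg2 came closest, with 188.6, 183 and 170 RPKM against 172, 167 and 157 RPKM, so their ranges overlapped. The lowest group mean was in SC clones at d21 for 7 members, in SC iPS cells for Actg2 (8.41 RPKM) and in SI clones at d27 for Des (3.13 RPKM). From the lowest to the highest group mean, Acta1 spanned 33.1-fold, Cnn1 21.4-fold and Actg2 19.6-fold. Acta2 spanned 17.3-fold, Myl9 15.7-fold, Tagln 12.8-fold, Tpm2 8.97-fold and Tpm1 8.19-fold. Des had the narrowest span, 6.64-fold.

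**Figure D1:**
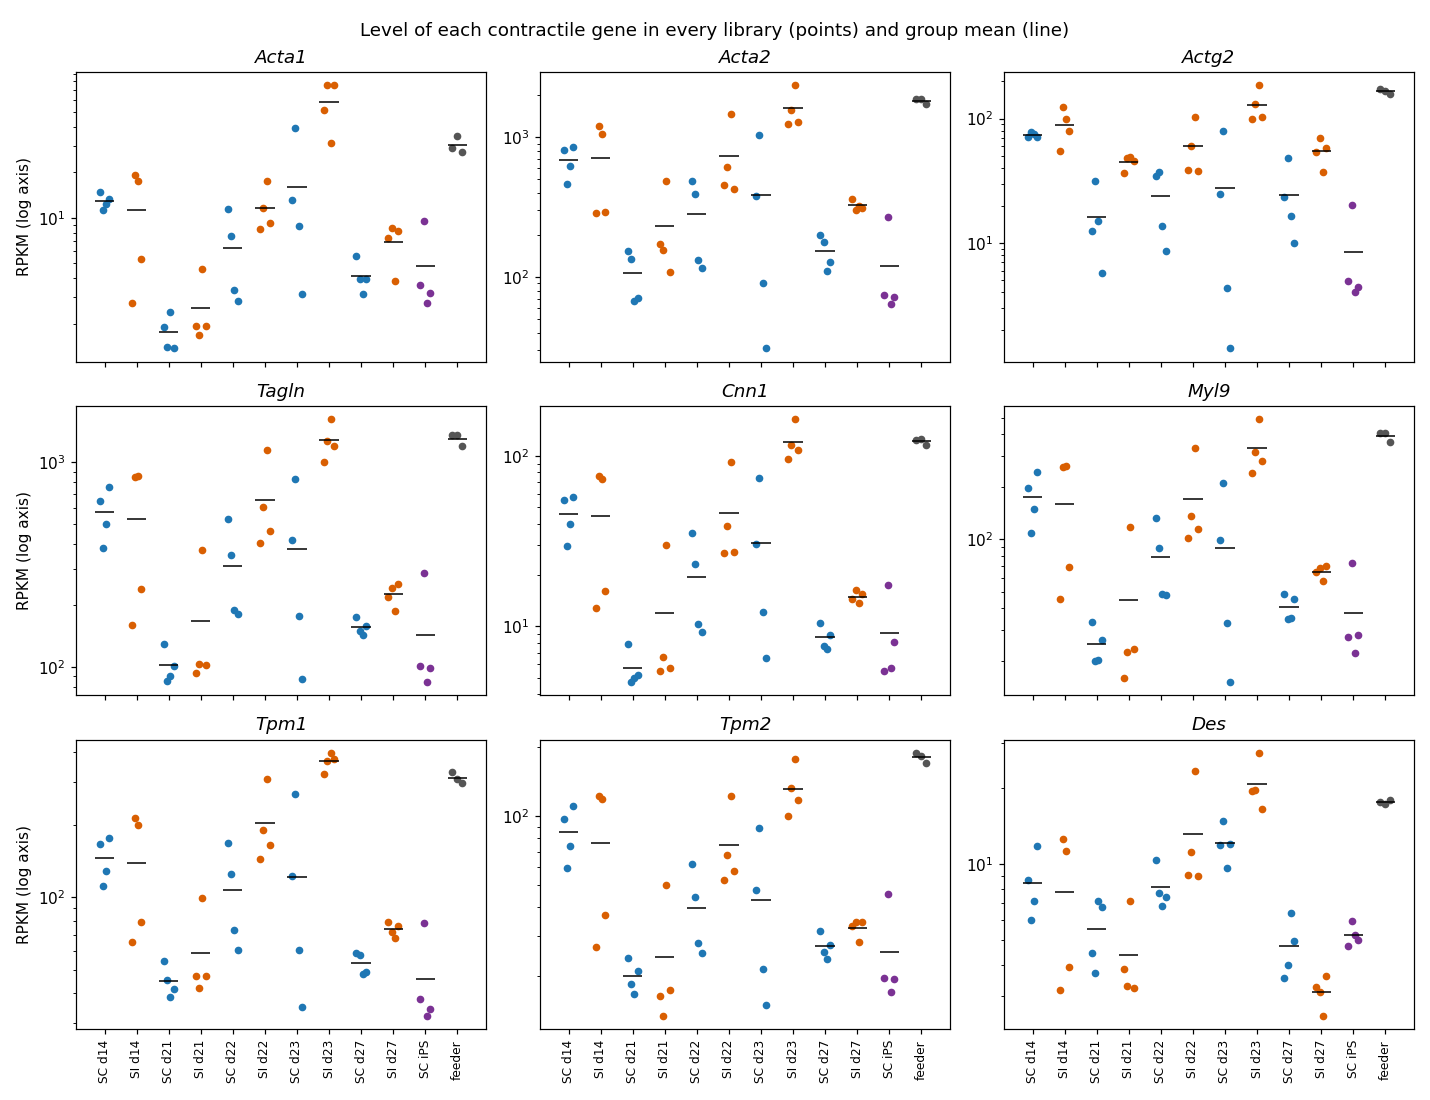
RPKM (log axis) of each member in every library of the 12 groups, with a line at the group mean. Levels are low at d21 and d27 in both classes and in most iPS libraries, and the SI clones at d23 stand near the feeders.

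At d14 the SC clones varied less among themselves than the SI clones. Acta2 stood at 813, 460.2, 628 and 857 RPKM in SC1 to SC4, against 289, 1203, 1051 and 292 RPKM in SI1 to SI4. Tagln stood at 645, 381, 499 and 755 RPKM in SC1 to SC4, against 160.1, 851, 854 and 241 RPKM in SI1 to SI4. In the SI class, clones 2 and 3 were above every SC clone and clones 1 and 4 below every SC clone for both genes. None of the 9 members differed between SC and SI at d14 by limma, where 0% of 11714 genes were called and 169 had an unadjusted p under 0.05. Against feeders, all 9 members were lower in SC clones at d14 (24.9% of all genes were lower). In SI clones at d14 only Acta2, Actg2 and Tpm1 passed the test against feeders (12% of all genes were lower), although all 9 members lay below the feeders in all 4 SI libraries (26.4% of all genes did). That count was 9 without SI2 or without SI3, 1 without SI1 and 0 without SI4 or without any one feeder library.

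Between d14 and d21, still on doxycycline, the contractile genes dropped further in the SC clones. Acta2 averaged 106 ± 43.5 RPKM in SC clones at d21 and 689 ± 182 RPKM at d14 (SD, n = 4 each), and Acta1 averaged 1.77 ± 0.488 and 12.97 ± 1.49 RPKM. Cnn1 averaged 5.69 ± 1.48 RPKM at d21 and 45.6 ± 13.2 RPKM at d14. Of the 9 members, 8 fell at d21 against d14 in SC clones, where 20.6% of all genes fell. Their log2 differences were between -1.66 for Tpm1 and -2.78 for Cnn1, and the 8 stayed past the threshold whichever clone was left out. Des differed by -0.53 (adjusted p = 0.0903, limma), and fell with the clones as a block (adjusted p = 0.0278). In the SI clones 0 members passed the test at d21 against d14, where 0% of genes were called and 2313 had an unadjusted p under 0.05. Every member but Des was lower at d21 in each of the 4 SI clones, at 0.0854 to 0.721 times the d14 level. Des stood at 1.21 times its d14 level in SI1 and was lower at d21 in SI2, SI3 and SI4.

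The third SI clone stood apart at d21 and d22. At d21, Myl9 measured 16.0, 22.3, 117 and 23.4 RPKM in SI1 to SI4, and Cnn1 5.46, 6.65, 30.1 and 5.72 RPKM. SI3 was the highest SI library for all 9 members at that time. Fibroblast markers moved with this, with a median ratio to the feeder mean of 0.518 in SI3 and 0.202 to 0.243 in the other SI clones at d21. Their part in the result was not tested. Between the classes at d21, 0 members passed the test (0% of 11757 genes called, 1572 with an unadjusted p under 0.05). Actg2 was the 1 member whose groups did not overlap (2.33% of all genes were lower without overlap), at 12.4, 31.3, 15.1 and 5.68 RPKM in SC1 to SC4 against 36.3, 48.0, 49.5 and 45.2 RPKM in SI1 to SI4. Its log2 difference was -1.63 ± 0.40 (SE, adjusted p = 0.296, limma), and without SC2 it was -2.01 (adjusted p = 0.0193).

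After doxycycline was withdrawn, the SI clones regained the whole set within 2 days. Acta2 measured 173, 156, 484 and 109 RPKM in SI1 to SI4 at d21, 458, 614, 1464 and 430.3 RPKM at d22, and 1255, 1559, 2369 and 1292 RPKM at d23. Every clone increased at each step. Acta1 measured 1.92, 1.69, 4.60 and 1.93 RPKM in SI1 to SI4 at d21, 8.40, 11.6, 17.6 and 9.27 RPKM at d22, and 51.6, 75.8, 31.3 and 75.7 RPKM at d23. The clone with the highest d21 level, SI3, had the smallest relative increase in Acta1, 6.81-fold, against 26.8-fold to 44.8-fold in the other SI clones. Des measured 3.86, 3.31, 7.14 and 3.25 RPKM in SI1 to SI4 at d21, 9.03, 11.2, 23.4 and 8.95 RPKM at d22, and 19.4, 19.7, 27.6 and 16.5 RPKM at d23. At d22 against d21, 8 of 9 members rose in SI clones, all but Actg2, where 19.1% of all genes rose. Leaving out a clone lowered that count to 3 without SI1 and to 2 without SI2 or without SI4.

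At d23 against d21 all 9 members rose in SI clones, where 22.7% of 11796 genes rose, and their times did not overlap, as for 20.5% of genes in this direction. All 9 also rose whichever clone was left out. Acta1 showed a log2 difference of 4.06 ± 0.33 (SE, adjusted p = 8.57e-05, limma). The filament-binding genes Cnn1 and Tagln changed by 3.57 ± 0.47 (adjusted p = 0.000484) and 3.18 ± 0.42 (adjusted p = 0.000481). Myl9 changed by 3.30 ± 0.56 (adjusted p = 0.00142) and Acta2 by 3.00 ± 0.43 (adjusted p = 0.000685). The tropomyosins followed, Tpm1 at 2.71 ± 0.25 (adjusted p = 0.000123) and Tpm2 at 2.55 ± 0.37 (adjusted p = 0.000761). Des changed by 2.05 ± 0.23 (adjusted p = 0.000265). Actg2 rose least, by 1.48 ± 0.21 (adjusted p = 0.000613, limma). The members' median was 3.00, beside -0.12 over all genes tested.

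**Figure D2:**
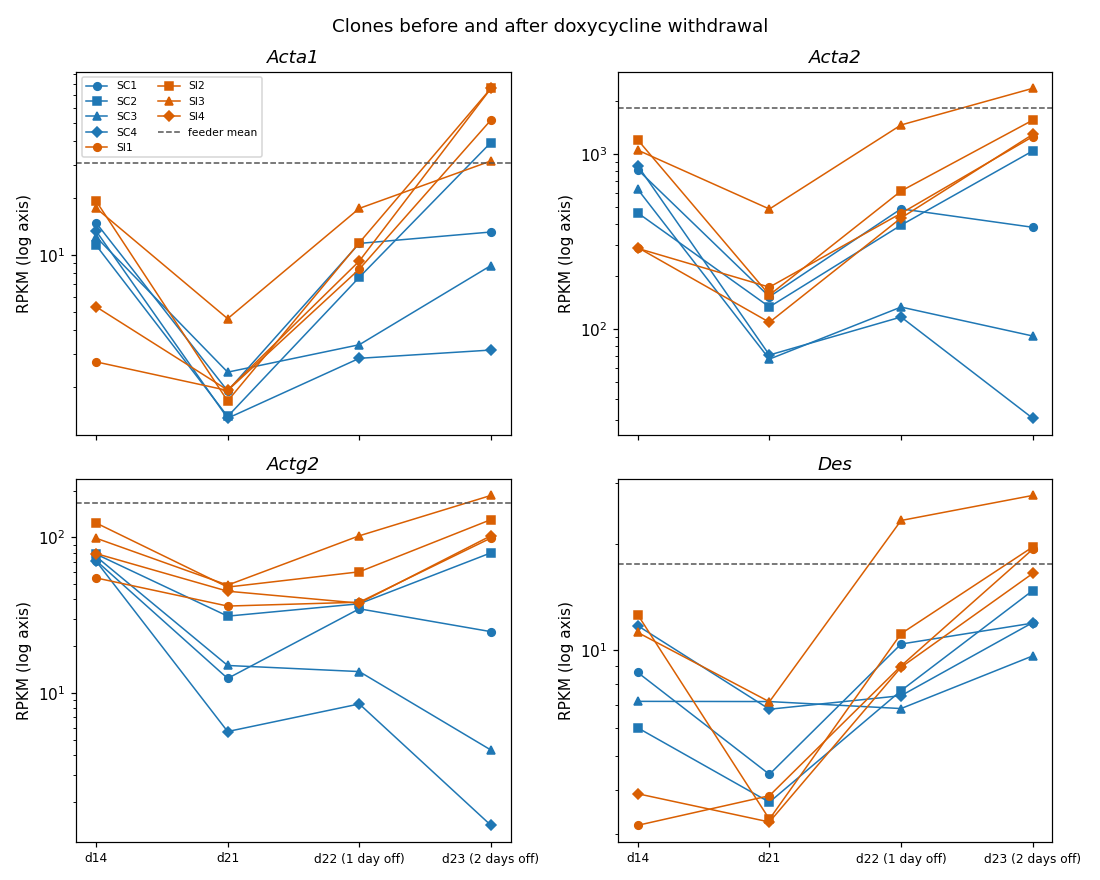
RPKM (log axis) of Acta1, Acta2, Actg2 and Des in each clone at d14, d21, d22 and d23, with the feeder mean dashed. The 4 SI clones climb after withdrawal, while the SC clones spread apart for Acta2 and Actg2, SC2 upward and SC4 downward.

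The SC clones went separate ways after withdrawal. At d22 all 4 SC clones had more Acta2 than at d21, with 153, 134, 67.2 and 71.0 RPKM in SC1 to SC4 at d21, 485, 392, 133 and 117 RPKM at d22, and 381, 1039.7, 91.1 and 30.9 RPKM at d23. By d23 Acta2 was above its d22 level only in SC2. Actg2 measured 12.4, 31.3, 15.1 and 5.68 RPKM in SC1 to SC4 at d21, 34.8, 37.5, 13.8 and 8.54 RPKM at d22, and 24.9, 79.7, 4.32 and 1.42 RPKM at d23. Its d23 level was 2.55 times the d21 level in SC2 and 0.25 times that level in SC4. Acta1 measured 1.91, 1.40, 2.40 and 1.37 RPKM in SC1 to SC4 at d21, 11.5, 7.61, 3.35 and 2.84 RPKM at d22, and 13.2, 39.2, 8.78 and 3.14 RPKM at d23, higher at d23 than at d21 in 4 of 4 clones. Des, at 11.95, 14.8, 9.64 and 11.99 RPKM in SC1 to SC4 at d23 against 4.44, 3.70, 7.15 and 6.80 RPKM at d21, was also higher in 4 of 4 clones. So was Cnn1, at 1.26 to 15.8 times its d21 level, but its times overlapped. Acta1 and Des were the 2 members whose times did not overlap (4.53% of all genes were higher without overlap).

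At d22 against d21 the members past the threshold in SC clones were Tagln, at 1.48 ± 0.34, and Myl9, at 1.53 ± 0.34 on the log2 scale (SE, adjusted p = 0.0406 and 0.0374, limma). In that comparison 3.42% of all genes rose. With the clones as a block 7 members rose, all but Actg2 and Des, and leaving out SC1, SC2 or SC3 left 0, leaving out SC4 gave 4. The 3.42% belongs to the main fit and does not apply to these refits. At d23 against d21, 1 member rose in SC clones, Des, by 1.03 ± 0.21 (adjusted p = 0.037), where 0.985% of all genes rose. This call was lost whichever clone was left out (adjusted p = 0.0578 to 0.295), and without SC4 the 1 member past the threshold was Acta1 (adjusted p = 0.0339). Acta1 differed by 2.17 ± 0.58 (adjusted p = 0.0804 in limma, and 0.0436 with the clones as a block). The rest did not pass. Cnn1 differed by 1.74 ± 0.63 (adjusted p = 0.169), Tagln by 1.43 ± 0.61 (adjusted p = 0.244) and Myl9 by 1.19 ± 0.71 (adjusted p = 0.412). Tpm1 differed by 1.03 ± 0.54 (adjusted p = 0.348), Acta2 by 0.88 ± 0.96 (adjusted p = 0.689) and Tpm2 by 0.76 ± 0.48 (adjusted p = 0.449). Actg2 differed by -0.20 ± 1.03 (adjusted p = 0.948, limma).

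After 2 days without doxycycline the contractile set was lower in SC than in SI clones. Tagln measured 418, 833, 178 and 87.4 RPKM in SC1 to SC4, against 1005, 1277, 1631 and 1206 RPKM in SI1 to SI4. Cnn1 measured 30.4, 74.4, 12.1 and 6.53 RPKM in SC1 to SC4, against 96.4, 115, 165 and 108 RPKM in SI1 to SI4. SC2 was the highest SC library for all 9 members, and its Acta1 level of 39.2 RPKM lay above the 31.3 RPKM of SI3. Acta1 was the member whose groups overlapped, and the other 8 were lower in each SC clone than in every SI clone, where 14.2% of all genes were lower without overlap. All 9 members were lower in SC by limma, where 19.5% of 11805 genes were lower.

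The members with the largest differences at d23 were the actins Actg2 and Acta2. Actg2 stood at 27.6 ± 36.3 RPKM in SC and 130 ± 40.2 RPKM in SI (SD, n = 4 each), a log2 difference of -3.30 ± 0.97 (SE, adjusted p = 0.0316, limma). Acta2 averaged 386 ± 462 RPKM in SC and 1619 ± 518 RPKM in SI, a difference of -3.08 ± 0.95 (adjusted p = 0.0355, limma). Acta1 averaged 16.1 ± 16.0 RPKM in SC and 58.6 ± 21.4 RPKM in SI, a difference of -2.19 ± 0.62 (adjusted p = 0.0303, limma). The light chain gene Myl9 differed by -2.47 ± 0.72 (adjusted p = 0.0315), Cnn1 by -2.44 ± 0.63 (adjusted p = 0.0267) and Tagln by -2.21 ± 0.62 (adjusted p = 0.03). Tpm1 differed by -1.98 ± 0.54 (adjusted p = 0.0287), Tpm2 by -1.87 ± 0.50 (adjusted p = 0.0278) and Des by -0.73 ± 0.18 (adjusted p = 0.0257). The members' median was -2.21, beside -0.01 over all genes tested. All 9 adjusted p-values were near the threshold, and the count varied with the libraries kept. Without SC2 the 9 members had adjusted p-values of 0.000850 to 0.00427. Leaving out SC1, SC3, SC4 or any one of SI1 to SI4 gave 0 members, with adjusted p-values of 0.0502 to 0.102, and the differences stayed below 0 in each of these fits.

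Whether the change after withdrawal itself differed between the classes was tested as the SC minus SI difference of the d23 against d21 changes. The estimates were all below 0, at -2.12 ± 1.13 for Acta2, -2.10 ± 0.97 for Myl9, -1.89 ± 0.71 for Acta1 and -1.83 ± 0.84 for Cnn1 (SE). Tpm2 stood at -1.79 ± 0.65, Tagln at -1.75 ± 0.79, Tpm1 at -1.68 ± 0.63, Actg2 at -1.67 ± 1.12 and Des at -1.02 ± 0.33. None passed the threshold in limma (adjusted p = 0.136 to 0.335), where 0% of 12714 genes were called and 3237 had an unadjusted p under 0.05. With the clones as a block 3 members passed, Tpm1 (adjusted p = 0.0474), Tpm2 (adjusted p = 0.0412) and Des (adjusted p = 0.0359). Without SC2, 8 members passed, all but Actg2. The 0% of genes called belongs to the main fit, and the share of all genes in these refits is not given.

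**Figure D3:**
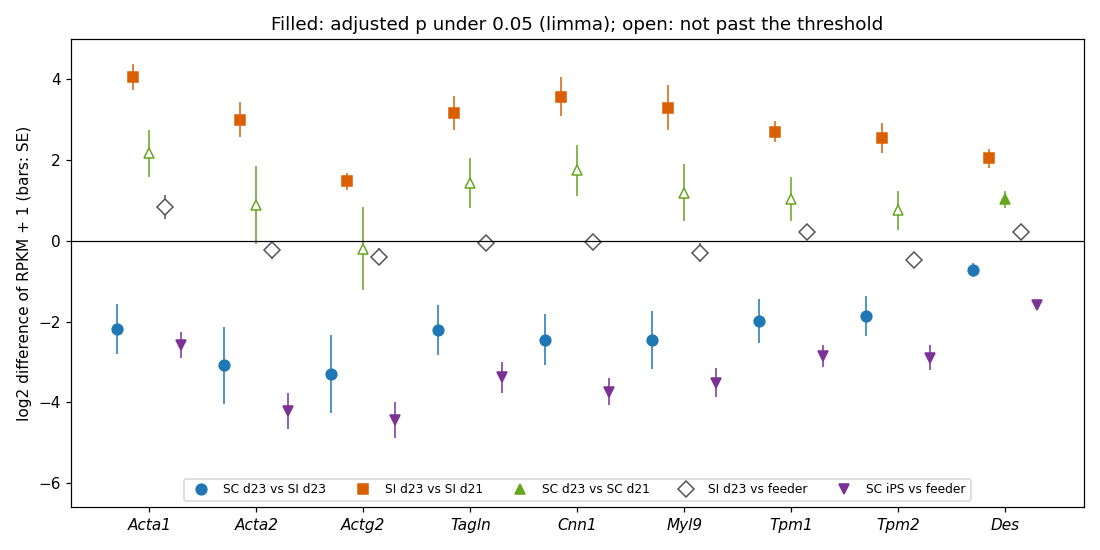
Log2 difference of RPKM + 1 for each member, with SE bars, in 5 comparisons. Filled symbols passed an adjusted p of 0.05 in limma. All 9 members are filled and above 0 for SI d23 against SI d21, all 9 are filled and below 0 for SC d23 against SI d23 and for SC iPS against feeder, and none is filled for SI d23 against feeder.

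At d22 the classes were not separated by the test, with 0 members past the threshold (0% of 11880 genes called, 4140 with an unadjusted p under 0.05). All 9 log2 differences were below 0 there, from -0.54 for Des to -1.47 for Acta2. Clones kept on doxycycline to d27 stayed low in both classes. Acta2 measured 201, 178, 111 and 128 RPKM in SC1 to SC4 at d27, against 364, 304, 322 and 313 RPKM in SI1 to SI4. Cnn1 measured 10.5, 7.65, 7.34 and 8.91 RPKM in SC1 to SC4, against 14.4, 16.3, 13.7 and 15.4 RPKM in SI1 to SI4. The classes did not overlap for these or for 3 other members, all lower in SC (8.41% of all genes were lower without overlap). Acta2 was lower in SC at d27 by -1.11 ± 0.18 (SE, adjusted p = 0.0489, limma) and Cnn1 by -0.74 ± 0.11 (adjusted p = 0.0428), 2 of 9 members, where 0.252% of 11513 genes were lower.

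The other members at d27 did not pass. Actg2 differed by -1.31 ± 0.42 (adjusted p = 0.146), Myl9 by -0.66 ± 0.12 (adjusted p = 0.0579) and Acta1 by -0.60 ± 0.23 (adjusted p = 0.188). Tagln differed by -0.52 ± 0.11 (adjusted p = 0.075), Tpm1 by -0.46 ± 0.09 (adjusted p = 0.061) and Tpm2 by -0.26 ± 0.10 (adjusted p = 0.192). Des was the member with a positive difference, 0.45 ± 0.16 (adjusted p = 0.165, limma). Leaving out SC2 gave 6 members past the threshold and leaving out any other single library gave 0. At d27 against d21, 0 members passed in SC clones, where 0.00847% of genes were called. With the clones as a block 8 rose, all but Des (adjusted p = 0.0165 to 0.0494, limma). The share of all genes in that refit is not given, and the 0.00847% does not apply to it. In the SI clones 0 members passed at d27 against d21 (0% of genes called, 3566 with an unadjusted p under 0.05), and without SI3 the count was 8, all but Des. Here too the 0% belongs to the main fit.

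Feeder levels were set beside each clone library, since the labels do not say how much feeder RNA a clone library held. For each library the median ratio of the 9 members to the feeder mean was set beside that of 22 fibroblast markers that are not contractile genes. At d23 the members' ratio was 0.265, 0.611, 0.119 and 0.067 in SC1 to SC4, against 0.770, 0.945, 1.25 and 0.890 in SI1 to SI4. The fibroblast markers' ratio was 0.352, 0.609, 0.190 and 0.147 in SC1 to SC4, against 0.708, 0.759, 1.16 and 0.630 in SI1 to SI4. Both measures ranked SC2 first among the SC clones and SI3 first among the SI clones. The members' ratio exceeded the fibroblast ratio in 4 of 4 SI libraries at d23, by 1.08 to 1.41 times. In SC at d23 it was 1.002 times the fibroblast ratio in SC2, and 0.752, 0.625 and 0.456 times in SC1, SC3 and SC4. At d21 the members' ratio was below the fibroblast ratio in all 8 clone libraries, at 0.278 to 0.390 times in SC and 0.347 to 0.551 times in SI. This was not particular to d21. Every library at d14, d22 and d27 and of the iPS cells was also below, at no more than 0.822, 0.760, 0.860 and 0.788 times. The part of feeder or unreprogrammed fibroblast RNA in these levels was not tested.

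**Figure D4:**
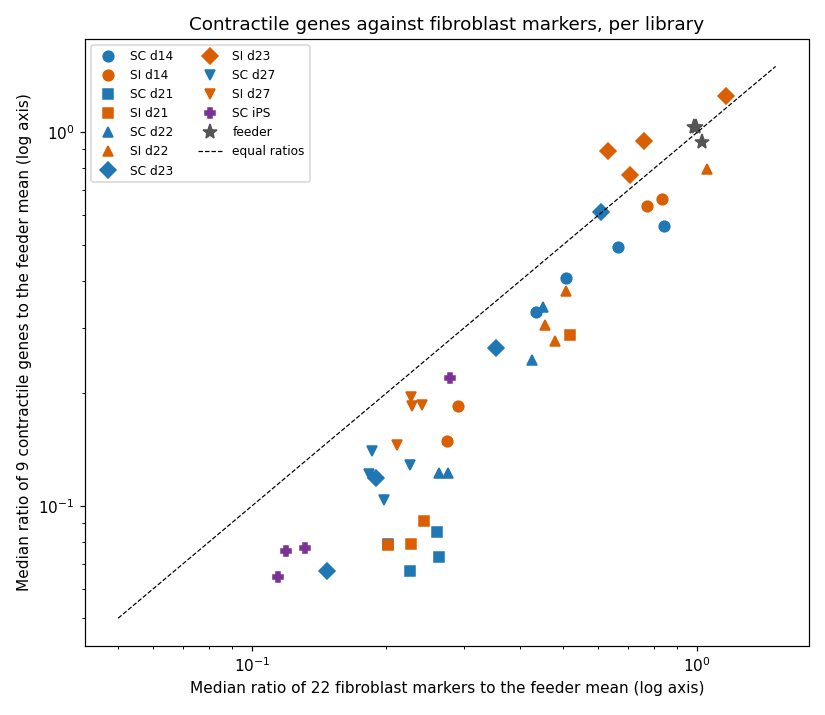
Median ratio to the feeder mean of the 9 members (vertical) against that of 22 fibroblast markers (horizontal), 1 point per library, both axes log, with a dashed line where the ratios are equal. The SI libraries at d23 lie above the line, and the 4 SC libraries and SI1, SI2 and SI4 at d21 lie furthest below it.

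No member passed the test between SI clones at d23 and feeders, where 35.8% of 11741 genes were called. Each member's SI and feeder ranges overlapped (26.2% of all genes were higher and 19.2% lower without overlap). Acta1 averaged 58.6 ± 21.4 RPKM in SI clones and 30.5 ± 3.84 RPKM in feeders (SD, n = 4 and 3), a log2 difference of 0.84 ± 0.30 (SE, adjusted p = 0.0597, limma). Tpm1 differed by 0.22 ± 0.09 (adjusted p = 0.0906) and Des by 0.21 ± 0.15 (adjusted p = 0.305). Cnn1 differed by -0.04 ± 0.17 (adjusted p = 0.874), Tagln by -0.05 ± 0.16 (adjusted p = 0.8294) and Acta2 by -0.23 ± 0.22 (adjusted p = 0.433). Myl9 differed by -0.29 ± 0.23 (adjusted p = 0.326), Actg2 by -0.39 ± 0.21 (adjusted p = 0.169) and Tpm2 by -0.49 ± 0.18 (adjusted p = 0.0688). A p that misses the threshold does not show equal levels, and without SI3 5 members passed. Acta1 was then higher by 1.11 (adjusted p = 0.00026), while Tpm2, Actg2, Myl9 and Acta2 differed by -0.64, -0.58, -0.50 and -0.43 (adjusted p = 0.000763 to 0.00989). Levels above the highest feeder library were reached by 2, 3, 7 and 2 members in SI1 to SI4 at d23, and by 1 member, Acta1, in SC2.

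In SC clones at d23, 8 of 9 members were lower than in feeders, all but Acta1, where 25.5% of all genes were lower. That count was 2 without SC3 and 1 without any one of the 3 feeder libraries. At d27 all 9 members were lower than in feeders in SC clones (31.5% of all genes lower) and in SI clones (34.6%), whichever library was left out.

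The iPS cells kept low levels of the set. Acta2 measured 73.9, 269, 64.4 and 71.4 RPKM in iPS cells of SC1 to SC4, against 1889, 1889 and 1724 RPKM in feeders. Tagln measured 101, 287, 84.2 and 99.1 RPKM in the iPS cells, against 1356, 1356 and 1203 RPKM in feeders. The iPS cells of SC2 were the highest for all 9 members. All 9 members were lower in iPS cells than in feeders, also without any one library, where 38.8% of 12210 genes were lower. The log2 differences were -4.44 ± 0.46 for Actg2, -4.21 ± 0.46 for Acta2, -3.74 ± 0.33 for Cnn1, -3.51 ± 0.36 for Myl9 and -3.37 ± 0.38 for Tagln (SE). Tpm2 stood at -2.89 ± 0.30, Tpm1 at -2.85 ± 0.28, Acta1 at -2.58 ± 0.33 and Des at -1.58 ± 0.09. Their adjusted p-values were 3.00e-06 to 0.000104 (limma). The members' median ratio to feeders was 0.0773, 0.220, 0.0645 and 0.0759 in the iPS cells of SC1 to SC4, and that of fibroblast markers was 0.131, 0.279, 0.115 and 0.119. Against SC clones at d27, 0 members passed in iPS cells, where 1.62% of 11675 genes were called. With the clones as a block Actg2 was lower by -1.51 (adjusted p = 0.0268), and without SC2 6 members passed. The 1.62% does not apply to these refits.

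The mix of actins was not constant across groups. Acta1 amounted to 3.47%, 3.77%, 9.64% and 10.2% of Acta2, in RPKM, in SC1 to SC4 at d23, and to 4.11%, 4.86%, 1.32% and 5.86% in SI1 to SI4. It was 4.87%, 3.56%, 4.25% and 4.47% in the iPS cells of SC1 to SC4, against 1.54% to 1.84% in feeders. The share in 7 of 8 clone libraries at d23, all but SI3, and in 4 of 4 iPS libraries was above every feeder library. This was not particular to those groups. All SC libraries at d22 (1.94% to 2.51%) and at d27 on doxycycline (2.20% to 3.06%) were also above every feeder library. The SI libraries spanned 1.20% to 2.15% at d22 and 1.18% to 2.81% at d27. Actg2 amounted to 7.86% to 8.36% of Acta2 in the SI clones at d23 and to 8.84% to 9.11% in feeders. On doxycycline it varied more, at 8.01% to 23.4% in SC and 10.2% to 41.4% in SI at d21. These shares are descriptions and were not tested, and the reads that actins share can shift them.

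**Figure D5:**
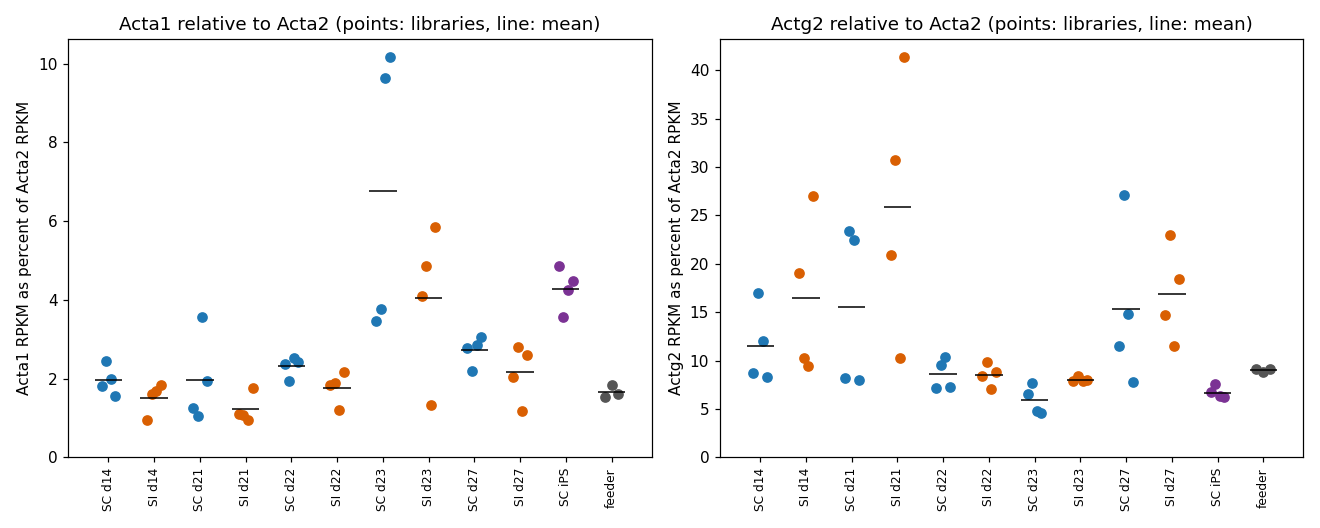
Acta1 (left) and Actg2 (right) as a percent of Acta2, in RPKM, in every library, with a line at the group mean and both axes from 0. Acta1 reaches its highest share in SC clones at d23, and Actg2 in SI clones at d21.

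Most genes tested from the wider contractile machinery rose in the SI clones as well. Of 33 tested actin-binding and contractile genes beside the members, 29 rose and 1 fell in SI clones at d23 against d21, with a median log2 difference of 1.72. Of all genes tested there, 22.7% rose and 32% fell. Csrp1, a LIM protein of actin bundles, averaged 371 ± 30.8 RPKM at d23 and 70.1 ± 18.9 RPKM at d21 (SD, n = 4 each; adjusted p = 6e-05, limma). The integrin gene Itga5 averaged 229 ± 24.5 and 37.3 ± 11.97 RPKM (adjusted p = 6.65e-05), and Vcl (vinculin, of focal adhesions) 188 ± 7.68 and 37.1 ± 13.5 RPKM (adjusted p = 0.000102). Tagln2, a relative of Tagln, averaged 228 ± 33.6 and 240.3 ± 37.0 RPKM and did not pass (adjusted p = 0.71). In SC against SI at d23, 25 of the 33 were lower and 0 higher (19.5% and 23% of all genes). Counts for this list and the lists below come from the main fit alone, and no refit without a library was made for them. For the members, such refits of this comparison gave counts of 0 to 9. Myl6, an essential myosin light chain gene, averaged 61.6 ± 27.8 RPKM in SC and 162 ± 34.5 RPKM in SI (adjusted p = 0.0222, limma), Nexn 5.26 ± 4.55 and 19.4 ± 4.58 RPKM (adjusted p = 0.023), and Fhl2 21.4 ± 10.5 and 49.3 ± 3.25 RPKM (adjusted p = 0.0241). Actb, the cytoplasmic beta-actin gene, averaged 531 ± 317 RPKM in SC and 977 ± 112 RPKM in SI and did not pass (adjusted p = 0.0546).

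Of 17 tested regulators of serum response factor, myocardin and TGF-beta signalling, 11 rose and 1 fell in SI clones at d23 against d21. Of all genes, 22.7% rose and 32% fell in that comparison. The ligand gene Tgfb1 averaged 25.4 ± 3.63 RPKM at d23 and 7.02 ± 2.06 RPKM at d21 (adjusted p = 0.000177, limma), Tgfb2 31.5 ± 7.27 and 5.49 ± 2.15 RPKM (adjusted p = 0.000216), and Tgfb3 43.5 ± 15.01 and 7.59 ± 5.51 RPKM (adjusted p = 0.000875). Tgfb2 stood at 4.99 ± 0.354 RPKM in feeders, below the SI clones at d23. Skil, a SMAD corepressor gene, averaged 21.6 ± 5.26 and 22.5 ± 5.68 RPKM and did not pass (adjusted p = 0.868). In SC against SI at d23, 8 of these 17 were lower and 0 higher (19.5% and 23% of all genes). Among them were Tgfb1 at 10.6 ± 5.76 RPKM in SC (adjusted p = 0.023), Tgfb3 at 11.9 ± 11.4 RPKM (adjusted p = 0.0249) and the kinase gene Rock2 at 24.6 ± 9.56 RPKM in SC and 47.02 ± 7.67 RPKM in SI (adjusted p = 0.0273). Rhoa, the GTPase upstream of Rock2, averaged 91.6 ± 9.70 RPKM in SC and 111 ± 4.13 RPKM in SI and did not pass (adjusted p = 0.104, limma).

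Markers were examined for the cell type that the members are named after. Of 7 defining smooth muscle markers, 5 averaged at least 1 RPKM in feeders, and their summed level was 58.4 to 62.1 RPKM. All but Myocd also belong to the contractile list above, and Myocd belongs to the regulator list. The 5 tested below were therefore already counted there. Myocd, which encodes the smooth muscle cofactor myocardin, was at most 0.21 RPKM in any library and at 0 in 3 of them. Myh11, the smooth muscle myosin heavy chain, averaged 4.8 ± 5.26 RPKM in SC and 18.3 ± 5.99 RPKM in SI at d23, 1.87 ± 2.26 RPKM in SI at d21 and 14.0 ± 0.204 RPKM in feeders. All 5 tested markers of this list rose in SI clones at d23 against d21 (22.7% of all genes rose), led by Smtn (adjusted p = 0.000214, limma), Myh11 (adjusted p = 0.000686) and Lmod1 (adjusted p = 0.000695). In SC against SI at d23, 3 of 5 were lower (19.5% of all genes were), Lmod1 (adjusted p = 0.0283), Myh11 (adjusted p = 0.0298) and Mylk (adjusted p = 0.0321), and Smtn did not pass (adjusted p = 0.15). In SI, 4 of the 7 averaged at least 1 RPKM at d21 and 5 at d23. Mylk averaged 0.98 RPKM in SC and 3.9 RPKM in SI at d23. The filter on low values could keep such genes mainly through the group where they are high. For them the direction was the likely outcome. The 14 skeletal and cardiac markers summed to 2.60 to 5.63 RPKM in SI clones at d23 and to 1.95 to 2.01 RPKM in feeders, with Myod1 at most 0.04 RPKM in any library. At d22 these markers summed to 4.43 to 28.7 RPKM in SC and 4.38 to 15.1 RPKM in SI, and the troponin gene Tnnt2 reached 26.1 RPKM in an SC library. In SC at d23 they summed to 4.54 to 8.88 RPKM, with a median of 5.7 RPKM beside 6.1 RPKM at d22. The 1 gene of this list tested in SI clones at d22 against d21 rose (19.1% of all genes did), and neither of the 2 tested in SC against SI at d23 passed. No gene of the list averaged 1 RPKM in SI clones at d21. The filter on low values could therefore keep a gene mainly through its d22 level, and a rise was the likely outcome. The labels name fibroblasts, reprogramming cells and iPS cells, and no muscle cell.

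Other lists moved in the same comparisons. In SI clones at d23 against d21, 22.7% of all genes rose and 32% fell. In SC against SI at d23, 19.5% of all genes were lower and 23% higher. Counts of these short lists are to be read beside those shares. Fibroblast markers rose in SI clones at d23 against d21 for 19 of 22, and were lower in SC than SI at d23 for 16 of 22. Their summed level at d23 was 1384 to 5753 RPKM in SC and 6060 to 11026 RPKM in SI, with 9070 to 9529 RPKM in feeders. Of 8 pericyte markers 5 were tested, of which 4 rose in SI and 3 were lower in SC than SI. The untested Rgs5, Kcnj8 and Abcc9 were at most 0.39, 0.81 and 0.3 RPKM in any library. Of 8 macrophage markers 6 were tested, of which 5 rose in SI and 3 were lower in SC than SI. In SI, 4 of the 8 averaged at least 1 RPKM at d21 and 6 at d23. The filter on low values could therefore keep some through d23, such as Emr1, at 0.79 RPKM at d21 and 3.1 RPKM at d23. For these a rise was the likely outcome. Macrophage markers summed to 74.0 to 147 RPKM in SC and 171 to 327 RPKM in SI at d23, and to 178 to 190.1 RPKM in feeders. Epithelial markers rose in SI for 4 of 10, and 0 of 10 passed between SC and SI. They summed to 516 to 1434 RPKM in SC and 124 to 2454 RPKM in SI at d23, and to 9.14 to 9.67 RPKM in feeders. Of 8 endothelial markers, 1 was tested in SI clones at d23 against d21 and fell, Tek, which averaged 0.367 ± 0.160 RPKM at d23 and 10.3 ± 3.77 RPKM at d21 (adjusted p = 9.32e-05, limma). Tek passed the filter on low values through d21, so a fall was the likely outcome. None of the 8 was abundant enough to be tested between SC and SI at d23, where they summed to 2.21 to 23.7 RPKM in SC and 1.25 to 1.67 RPKM in SI. Pluripotency markers fell in SI at d23 against d21 for 4 of 7 tested and were higher in SC than SI at d23 for 10 of 10. They summed to 173 to 1372 RPKM in SC and 1.18 to 30.4 RPKM in SI at d23, with 0.14 to 0.32 RPKM in feeders. Of the 10, 4 averaged at least 1 RPKM in SI at d23, so the filter kept the others through SC, where they are high. A fall in SI of a gene low at d23, such as Tdh at 0.13 RPKM, has the same limit. Of 3 Y-linked genes tested, 0 passed in SI at d23 against d21 and 1 was lower in SC than SI at d23. For the 4 Y-linked genes the median ratio to feeders was 0.310 to 2.96 in SC and 1.13 to 3.61 in SI at d23. The part of these other cell types in the members' levels was not tested.

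Across the 47 libraries the members' log2(RPKM + 1) values correlated with one another at Pearson's r of 0.392 (Actg2 with Des) to 0.993 (Tagln with Cnn1), a description of libraries that share clones and times. Des and Actg2 were the least tied to the rest. Of 9380 non-member genes that averaged 5 RPKM or more in some group, those most like the members' mean were Hs6st2 (r = 0.988), Myh11 (r = 0.987), Filip1l (r = 0.986), Mmp14 (r = 0.984), Col8a1 (r = 0.983) and Gm11157 (r = 0.983). The least alike were Crlf3 (r = -0.957), Kntc1 (r = -0.955) and Odf2 (r = -0.951). For single members the most alike gene was Dcbld2 for Acta1 (r = 0.943), Golim4 for Acta2 (r = 0.977), Gng10 for Actg2 (r = 0.964) and Mxra7 for Des (r = 0.958). It was Gm11157 for both Tagln (r = 0.986) and Myl9 (r = 0.985), Hs6st2 for Cnn1 (r = 0.988), Phldb2 for Tpm1 (r = 0.988) and Filip1l for Tpm2 (r = 0.988).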

How the data were processed

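Messenger RNA of 47 mouse samples was sequenced from TruSeq libraries after a Qiagen column and DNase step, per the labels' protocols. The authors deposited 1 table of RPKM values for 22632 genes. The unit is not named in the table and was read from the values, since the product of RPKM and gene length added up to 0.788 to 0.998, close to the 1 that the unit implies. Per the submitters' processing notes, CASAVA 1.8 and mm9 were used, in a role not stated. Aligner, annotation and filters: not given in the sources used here. Days with and without doxycycline follow each library's characteristics.

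In 22 comparisons, each fitted to only the libraries it compares, limma 3.58.1 (R 4.3.3, lmFit and eBayes with trend) was run on log2(RPKM + 1), for genes with at least 1 RPKM in as many libraries as the smaller group holds. P-values are two-sided. Tables were made in Python 3.11.15 (pandas 2.3.3, numpy 2.4.6), figures in matplotlib 3.10.9, and the fit was tested on simulated data. The members, the 11 gene lists and the comparisons were chosen with earlier results of these data known. All members are named in the main comparisons, and elsewhere those past the threshold. From the contractile, regulator and smooth muscle lists the 3 smallest adjusted p-values and the most abundant gene not past the threshold are named, and lists of other cell types are given as counts and summed levels. Alternatives were a pseudocount of 0.1, no filter, median-ratio scaling, 1 fit over all 12 groups, a replicate block, and leaving out each library or clone. The block pairs times within a class, because clone names in the titles give the same clone at each time, and deviations from the group means correlated at -0.353 to 0.914 over 36 such pairs. Between SC and SI, or against feeders, numbers are only names. The block was also run there, but it then matches unrelated libraries by number and is not a pairing.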

Additional observations from a re-analysis of the deposited data

Results flagged for a closer look

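Within groups of 4 libraries, 17 of 99 combinations of member and group held a library far from the other 3, with a gap to its nearest neighbour that exceeds Dixon's critical value for its group's range. Chance flags about 1 in 20 groups, and members of 1 library are not independent. In every case the library was the highest of its group. SI3 at d21 stood apart for 7 members, with Tagln at 372.71, Myl9 at 117.47, Tpm1 at 99.36, Tpm2 at 49.86, Cnn1 at 30.06, Des at 7.14 and Acta1 at 4.60 RPKM. At d22 it stood apart for Myl9, at 332.34 RPKM, and Des, at 23.4 RPKM. The iPS library of SC2 stood apart for 7 members, with Tagln at 286.78, Acta2 at 268.53, Tpm1 at 78.16, Myl9 at 73.15, Tpm2 at 45.72, Actg2 at 20.22 and Acta1 at 9.55 RPKM. SC1 at d21 stood apart for Cnn1, at 7.89 RPKM. Fibroblast markers moved with SI3 and with the iPS cells of SC2. Their median ratio to feeders was 0.518 in SI3 at d21, where SI1, SI2 and SI4 held 0.202 to 0.243. At d22 it was 1.05 in SI3, where SI1, SI2 and SI4 held 0.455 to 0.506. It was 0.279 in the iPS cells of SC2, against 0.115 to 0.131 in the other iPS libraries. Their part was not tested.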

How the results depend on the processing

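Of 198 fold changes (9 members in 22 comparisons), 119 were followed one by one, those of all members in the main comparisons and of called members elsewhere. Refitted under the alternatives, they kept their direction and side of the threshold in 1133 of 1347 values, fell short of it in 181, newly passed it in 27 and changed sign in 6. The other 79 changed sign 15 times, 7 in SC against SI at d14, 4 at d21 and 4 in iPS against d27, to values of -0.30 to 0.33, none of them past the threshold. Counts of members called that moved are given here, without the share of all genes in the same refit, and the cause was not tested. With no filter on low values 5 members were called in SC against SI at d23 and 0 at d27, 0 in SC at d22 or d23 against d21, 1 in SI at d14 and 5 in SC at d23 against feeders. With median-ratio scaling 4 were called in SC at d22 against d21 and 8 in SI at d14 against feeders. In 1 fit over all groups the counts were 0 in SC against SI at d27, 4 in SC at d23 against d21, 6 in SI at d21 against d14, 2 for the difference of changes, and 3 in SC and 8 in SI at d14 against feeders. With the replicate block they were 0 in SC against SI at d27, 7, 2 and 8 in SC at d22, d23 and d27 against d21, 3 for the difference, 1 in iPS against d27, and 0 in SI at d14 against feeders. The block changed no other count by over 1.5 times, though SC against SI at d23 gave 7. Between SC and SI, and against feeders, the block matches unrelated libraries by number. Its values there say nothing about pairing. Leaving out single libraries or clones gave 0 to 9 in SC against SI at d23, 0 to 6 at d27, and 0 to 1 at d21 and d22. It gave 0 to 4 and 0 to 1 in SC at d22 and d23 against d21, 2 to 8 and 0 to 8 in SI at d22 and d27 against d21, 0 to 8 for the difference and 0 to 6 in iPS against d27. Against feeders it gave 0 to 9 in SI at d14, 1 to 9 in SC at d23 and 0 to 5 in SI at d23. The 6 sign changes were as follows. Actg2 in SC at d23 against d21 became 0.27 without SC3 and 0.22 without SC4, in a range of -0.71 (without SC2) to 0.27. In SI at d23 against feeders Cnn1 became 0.0062 with the block or without SI4 and 0.062 without SI1, and Tagln became 0.061 without SI1, against -0.193 for Cnn1 and -0.172 for Tagln without SI3. Median-ratio scaling shifted the median of all genes by -0.117 to -0.160 in 5 feeder comparisons and by under 0.1 elsewhere. Read depth is known only up to a multiple, and 4 clones a class limit the precision.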
